A study of Bos indicus x Bos taurus with 17 samples.

Results

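Maternally expressed imprinted genes were described in skeletal muscle and liver of bovine fetuses at about day 105 of gestation. Of 6 genes chosen by symbol (H19, MEG3, CDKN1C, PHLDA2, GRB10 and GNAS), 4 were matched among the 21048 listed genes of each tissue, and H19 and MEG3 were not analysed here. The 4 are CDKN1C, PHLDA2, GRB10 and GNAS.

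The fetuses were F1 hybrids of Bos taurus indicus (Nelore) and Bos taurus taurus (Holstein). The ART group held 4 fetuses from in vitro production (ART 1 to 4), and the Control-AI group held 2 fetuses from artificial insemination (Control-AI 2 and 4), with both tissues of each. ART 1 to 3 are listed in the study as ART-Normal, with a weight like that of the controls, and ART 4 appears in the labels only. Each library is 1 fetus, so the spread between libraries includes that between animals. RNA was poly(A)-selected for strand-specific libraries, and the deposited values were raw read counts per gene on ARS-UCD1.2, with 12433300 to 43339598 reads per library. They are given as CPM, counts scaled to the library size with TMM factors. The counts do not separate the maternal from the paternal allele, so they bear on total levels only. They do not show whether any of these genes was imprinted in these tissues.

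Imprinted genes are transcribed mainly from the allele of 1 parent, under DNA methylation laid down in the egg or the sperm. Many maternally expressed ones restrain fetal or placental growth, whereas several paternally expressed ones promote it. Disturbed imprinting is known in overgrowth syndromes, among them the one that follows assisted reproduction in ruminants. CDKN1C encodes an inhibitor of cyclin-dependent kinases, PHLDA2 a small pleckstrin homology domain protein known for restraining placental growth, and GRB10 an adaptor that dampens signalling from the insulin and IGF1 receptors. GNAS encodes the stimulatory G protein alpha subunit, which couples hormone receptors to cAMP production, and its locus also gives other transcripts, some of them from the paternal allele.

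CDKN1C (identifier 510972) lies on the plus strand at chr29:48728468-48730923, and PHLDA2 (618810) on the plus strand at chr29:48689532-48690588. Both belong to a single imprinted cluster, where SLC22A18 lies between them, 2008 bp from PHLDA2 and 14535 bp from CDKN1C, and where KCNQ1 follows 29325 bp beyond CDKN1C. GRB10 (407210) lies on the plus strand at chr4:5105702-5327928, and its nearest gene is DDC at 7605 bp. GNAS (281793) lies on the minus strand at chr13:57465317-57532635. It is overlapped by 2 listed loci, LOC101909083 on the opposite strand and LOC112449315 on the same strand, and the latter held 0 reads in each of the 12 libraries. Reads were counted over whole gene spans, introns included, and the spans ran from 1057 bp for PHLDA2 to 222227 bp for GRB10. Levels were therefore not compared between genes.

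The libraries matched their tissue labels. The 9 hepatocyte markers summed to 37025.5 to 363108 CPM in liver and 25.7 to 402 CPM in muscle, and the 11 skeletal muscle markers to 22359.7 to 33254.5 CPM in muscle and 8.45 to 48.2 CPM in liver. Control-AI 2 stood apart in both tissues. Genes on the strand opposite a gene with at least 16 times their reads had a median log2 level of 1.55 (440 genes, muscle) and 1.78 (422 genes, liver) there, set against the mean over the remaining libraries of that tissue, compared with -0.44 to -0.29 in the other 10 libraries. Its hepatocyte marker sum was also the highest of the 6 livers. The study's methods draw the RNA-seq of controls from earlier work, while the labels list both controls with these libraries. Results between the conception groups are therefore given with and without Control-AI 2, whose part in them was otherwise not tested.

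CDKN1C was abundant in both tissues and lower in liver. In muscle, its level was 371, 381, 401 and 403 CPM in ART 1 to 4, while Control-AI 2 had 293 CPM and Control-AI 4 had 428 CPM. In liver, it was 266, 308, 325 and 281 CPM in ART 1 to 4, while Control-AI 2 had 162 CPM and Control-AI 4 had 309 CPM. Control-AI 2 was the lowest of its tissue both times, and Control-AI 4 was the highest in muscle and below ART 3 only in liver. The ART libraries lay between the controls in muscle and overlapped them in liver.

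The ART muscles were tightly grouped for this gene, at 389 ± 15.6 CPM (SD, n = 4). On the log2 scale their SD was 0.06, and 3.89% of tested muscle genes had a smaller one. In the ART livers 26.5% of tested genes had a smaller SD than CDKN1C. These ranks include genes of low counts, whose counting error adds to their SD. The ART livers gave 295 ± 26.5 CPM (SD, n = 4), and the controls 361 ± 96.0 CPM in muscle and 235 ± 104 CPM in liver (SD, n = 2 each). The liver and muscle ranges overlapped, but within each of the 6 fetuses CDKN1C was lower in liver, by a log2 difference of -0.85 in Control-AI 2 and of -0.52 to -0.30 in the other 5.

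PHLDA2 was near the detection limit in muscle and low in liver. In muscle, 3, 7, 5 and 2 reads were counted in ART 1 to 4, and 4 and 4 in Control-AI 2 and 4, which is 0.0995 to 0.393 CPM. In liver, 42, 97, 85 and 109 reads were counted in ART 1 to 4, and 36 and 74 in Control-AI 2 and 4. These liver counts are 1.95, 2.17, 3.46 and 3.68 CPM in ART, and 2.60 and 3.20 CPM in Control-AI.

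Every liver library exceeded every muscle library for PHLDA2, although the 2 control livers lay within the ART range. With only 25 muscle reads in all, the pooled level was 13.9 times higher in liver (443 reads), with an exact 95% interval of 9.30 to 21.7 that covers counting error only. The gene did not reach 5 CPM in all libraries of any group, so it was not among the genes tested in the main comparisons, and its tests come from fits without that filter.

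GRB10 was expressed in both tissues, and its ART libraries lay above the controls in each. In muscle, it stood at 87.3, 80.1, 122 and 83.9 CPM in ART 1 to 4, while Control-AI 2 had 56.5 CPM and Control-AI 4 had 70.0 CPM. In liver, it stood at 104, 116, 118 and 114 CPM in ART 1 to 4, while Control-AI 2 had 90.4 CPM and Control-AI 4 had 98.4 CPM. The lowest ART library was thus above the higher control in each tissue, and ART 3 was the highest of its group both times.

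The group levels of GRB10 were 93.4 ± 19.5 CPM (SD, n = 4) in ART muscle against 63.2 ± 9.51 CPM (SD, n = 2) in Control-AI muscle. In liver they were 113 ± 6.46 CPM (SD, n = 4) against 94.4 ± 5.65 CPM (SD, n = 2). Groups that do not overlap were common among all genes, at 16.1% of those tested in muscle and 18.5% in liver. GRB10 is in the longest decile of genes by span, and the median of that decile, relative to the mean of the other muscles, was 0.33 (log2) in ART 3 muscle and -0.42 in Control-AI 2 muscle, the highest and lowest of the 6 muscles. The part of this in the GRB10 levels was not tested.

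GNAS was higher in muscle than in liver in every fetus. In muscle, its level was 1942, 1998, 1779 and 1752 CPM in ART 1 to 4, while Control-AI 2 had 2593 CPM and Control-AI 4 had 1831 CPM. In liver, it was 1097, 1003, 1024 and 966 CPM in ART 1 to 4, while Control-AI 2 had 1571 CPM and Control-AI 4 had 1096 CPM. Control-AI 2 was the highest of each tissue, whereas Control-AI 4 lay inside the ART range.

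The ART groups gave 1868 ± 121 CPM in muscle and 1023 ± 55.1 CPM in liver for GNAS (SD, n = 4 each), and the controls 2212 ± 538 and 1333 ± 336 CPM (SD, n = 2 each). LOC101909083, which overlaps GNAS on the opposite strand, was also highest in Control-AI 2, at 40.5 CPM in muscle and 19.9 CPM in liver, against 5.41 to 11.5 CPM in the other 10 libraries. How strand was handled in counting is not given in the sources used here, so reads of overlapping loci on opposite strands cannot be told apart with certainty.

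**Figure D1:**
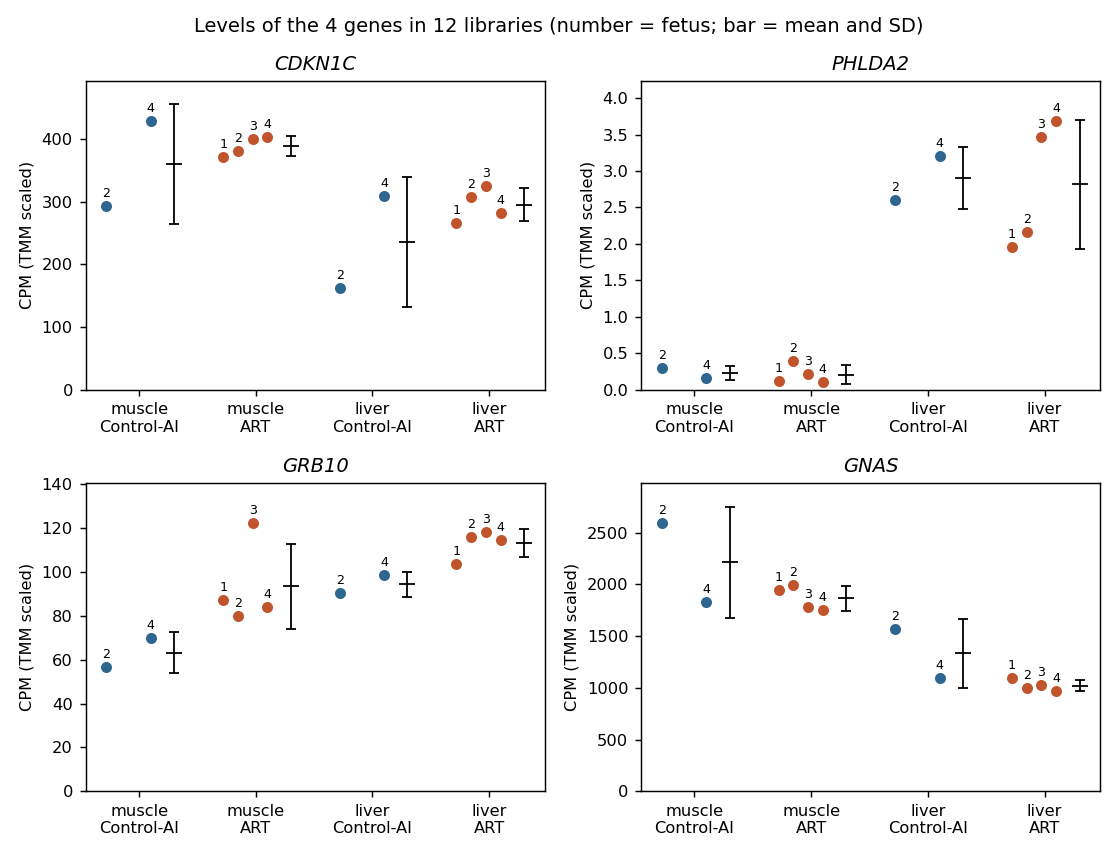
Level of each gene (CPM, TMM scaled, linear axis from 0) in muscle and liver of Control-AI (blue) and ART (orange) fetuses. Each point is 1 library with its fetus number, and the black bar is the group mean with its SD (n = 2 or 4). GRB10 in ART lies above both controls in each tissue, Control-AI 2 is lowest for CDKN1C and highest for GNAS, and PHLDA2 is at most 0.393 CPM in every muscle library.

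The first comparison asked whether the levels differed between fetuses conceived by assisted reproduction and by artificial insemination. None of the 3 genes tested (CDKN1C, GRB10 and GNAS) passed an adjusted p of 0.05 in muscle or in liver with edgeR's quasi-likelihood test, 4 ART against 2 Control-AI libraries. The background was as sparse, with 0.00855% of 11695 genes called in muscle (1 gene, ANKRD1) and 0.0% of 11304 in liver, where 948 had an unadjusted p under 0.05. In bulk tissue, fewer cells of a type and less RNA per cell cannot be told apart. Of 11 cell type marker lists, the summed levels did not overlap between the groups for 5 in liver and 1 in muscle. Among single genes tested, the groups did not overlap for 18.5% in liver and 16.1% in muscle. In liver, hepatocyte marker sums were lower in ART (37025.5 to 63843.6 against 70699.6 to 363108 CPM), as were endothelial sums (481 to 520 against 526 to 533 CPM). Erythroid sums were also lower (5252 to 5985 against 6193 to 24365 CPM), but HBG alone reached 20392 CPM in liver. The 7 tested erythroid markers had a median log2 fold change, ART over Control-AI, of 0.25 in liver. That median was -0.88 for the 9 hepatocyte markers and -0.09 for the 6 endothelial markers. No marker of these lists passed the test in liver. Sums for cycling cells (1954 to 2246 against 1727 to 1939 CPM) and for nerve and Schwann cells (171 to 216 against 142 to 158 CPM) were higher in ART livers. Singly, 1 of 6 cycling cell markers and 1 of 5 nerve and Schwann cell markers lay above both controls in every ART liver. Of those 5, 1 passed the expression filter in liver. In muscle, connective tissue marker sums were lower in ART (21838 to 25892 against 27522.5 to 28438 CPM). The 8 markers had a median log2 fold change of -0.21 there, and none passed the test. Of these 6 cases, 1 marker was at 0, a nerve and Schwann cell marker in the control livers, and the part of these levels in the results was not tested.

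GRB10 had the largest muscle difference of the 3. Its log2 fold change, ART over Control-AI, was 0.57 (SE 0.19, 95% interval 0.15 to 0.98, adjusted p = 0.389), a ratio of 1.48, and 94.5% of tested muscle genes had a smaller absolute value. In liver it was 0.25 (SE 0.12, 95% interval -0.01 to 0.52, adjusted p = 0.589). Without Control-AI 2, the values were 0.41 (-0.06 to 0.88) in muscle and 0.21 (-0.16 to 0.59) in liver, with none of the 3 genes called, among 0.0422% and 0.00859% of all genes. Without Control-AI 4, the muscle value was 0.74 and passed the threshold (adjusted p = 0.0491), in a fit where 10.9% of all genes did. Without ART 3, it was 0.41 in muscle (adjusted p = 0.776).

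CDKN1C and GNAS moved with the choice of control. For CDKN1C the log2 fold change, ART over Control-AI, was 0.12 (95% interval -0.25 to 0.48, adjusted p = 0.880) in muscle and 0.32 (-0.19 to 0.83, adjusted p = 0.641) in liver. Without Control-AI 2 it turned to -0.14 (-0.51 to 0.22) in muscle and -0.05 (-0.44 to 0.34) in liver. Without Control-AI 4 it was 0.43 (adjusted p = 0.160) in muscle and 0.85 (adjusted p = 0.0211) in liver, where 7.15% of all genes were then called.

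For GNAS the log2 fold change was -0.24 (95% interval -0.63 to 0.15, adjusted p = 0.737) in muscle and -0.39 (-0.81 to 0.03, adjusted p = 0.589) in liver. Without Control-AI 2 it was 0.03 (-0.37 to 0.42) in muscle and -0.09 (-0.49 to 0.32) in liver. With Control-AI 2 as the only control it was -0.46 (adjusted p = 0.131) and -0.64 (adjusted p = 0.0552). A fit with 1 control takes that library to vary like the ART group. A p that misses the threshold does not show that the groups are alike.

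**Figure D2:**
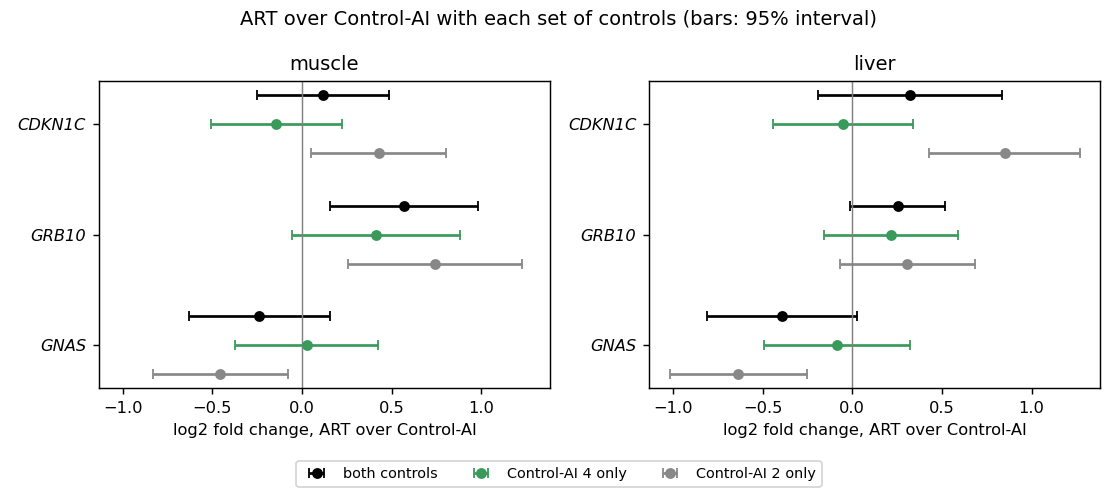
Log2 fold change, ART over Control-AI, of CDKN1C, GRB10 and GNAS in muscle (left) and liver (right), with 95% intervals, from 4 ART libraries against both controls (black), Control-AI 4 only (green) or Control-AI 2 only (grey). GRB10 is above 0 with each set of controls, whereas CDKN1C changes sign in both tissues and GNAS in muscle.

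PHLDA2 missed the filter of 5 CPM. With a filter of 10 counts in every library it was tested in liver only. Its liver value there was -0.05 (log2, ART over Control-AI, edgeR adjusted p = 0.972). The values that follow come from fits without a filter. Its log2 fold change, ART over Control-AI, was -0.03 (95% interval -0.90 to 0.84, edgeR adjusted p = 0.986) in liver and -0.12 (-2.31 to 2.07, adjusted p = 0.984) in muscle. Without Control-AI 2 it was -0.18 in liver and turned to 0.30 in muscle (adjusted p = 0.999 and 0.977). At 2 to 7 reads per muscle library, a severalfold difference in either direction was not detectable at this depth. With no filter 0.0% of 18078 genes were called in liver and 0.00549% of 18202 in muscle.

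The controls also differed from each other. On the log2 scale, Control-AI 2 minus Control-AI 4 was -0.55 in muscle and -0.93 in liver for CDKN1C. For GNAS it was 0.50 and 0.52, and 94.6% and 95.4% of genes of like span had a lower value. For GRB10 it was -0.31 and -0.12, beside a median of -0.31 and 0.01 over the longest decile of genes. The GRB10 difference between the control muscles was thus about that of other long genes, and the GNAS one was near the top for its span.

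KCNQ1, the potassium channel gene next to CDKN1C, showed the same library as an extreme. It stood at 269 CPM in Control-AI 2 muscle against 28.4 to 53.5 CPM in the other muscles, and at 128 CPM in Control-AI 2 liver against 9.86 to 14.8 CPM. In mammals an antisense noncoding RNA of the imprinted cluster, KCNQ1OT1, runs within this gene, and it was not analysed here. The nearest gene on the other side, SLC22A18, did not set Control-AI 2 apart in muscle, at 1.97 CPM (1.31 to 2.73 in the others). In liver Control-AI 2 was the highest, at 108 CPM, close above the others (43.6 to 101).

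The second comparison asked how the genes differed between the tissues of the same 6 fetuses. CDKN1C and GNAS were lower and GRB10 higher in liver, and all 3 passed the test, among 80.0% of 12923 genes that did (40.0% higher and 40.0% lower in liver). The share called is thus near the background. GNAS had a log2 fold change, liver over muscle, of -0.80 (SE 0.15, edgeR adjusted p = 0.000255), or 1.74 times higher in muscle. For CDKN1C it was -0.51 (SE 0.16, adjusted p = 0.00961), or 1.42 times higher in muscle, and for GRB10 0.43 (SE 0.12, adjusted p = 0.00431), or 1.34 times higher in liver.

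These differences were modest for the pair of tissues. The median absolute log2 fold change of all tested genes was 0.90, and 46.1% of genes had a smaller one than GNAS, 32.1% than CDKN1C and 27.7% than GRB10. Without Control-AI 2 the values were -0.84 for GNAS, -0.47 for CDKN1C and 0.35 for GRB10, each still past the threshold (adjusted p = 5.03e-05, 0.0019 and 0.0371), with 76.8% of genes called. With library size alone as the scale, which moved the median of all genes by -0.18, GRB10 fell to 0.26 and missed the threshold (adjusted p = 0.094). GRB10 also missed it in the ART fetuses alone (0.29, adjusted p = 0.0567), and in the Control-AI fetuses alone CDKN1C (-0.62, adjusted p = 0.230) and GNAS (-0.73, adjusted p = 0.190) did.

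PHLDA2 had the largest tissue difference of the 4. In the fit without the filter its log2 fold change, liver over muscle, was 3.71 (SE 0.44, edgeR adjusted p = 2.86e-06), or 13.1 times higher in liver, where 67.7% of 18749 genes were called. Leaving out each fetus in turn gave 3.45 to 4.03. The value rests on 2 to 7 muscle reads per library.

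Within single fetuses the direction was shared. GNAS and CDKN1C were lower in liver in 6 of 6 fetuses, PHLDA2 was higher in 6 of 6, and GRB10 was higher in 5 of 6. For GNAS the log2 differences, liver minus muscle, were the most even, from -0.99 in ART 2 to -0.72 in Control-AI 2. GRB10 ran from -0.05 in ART 3 to 0.68 in Control-AI 2, and PHLDA2 from 2.34 in ART 2 to 4.71 in ART 4. Liver and muscle libraries did not overlap for PHLDA2 and GNAS, as for 64.6% of tested genes.

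**Figure D3:**
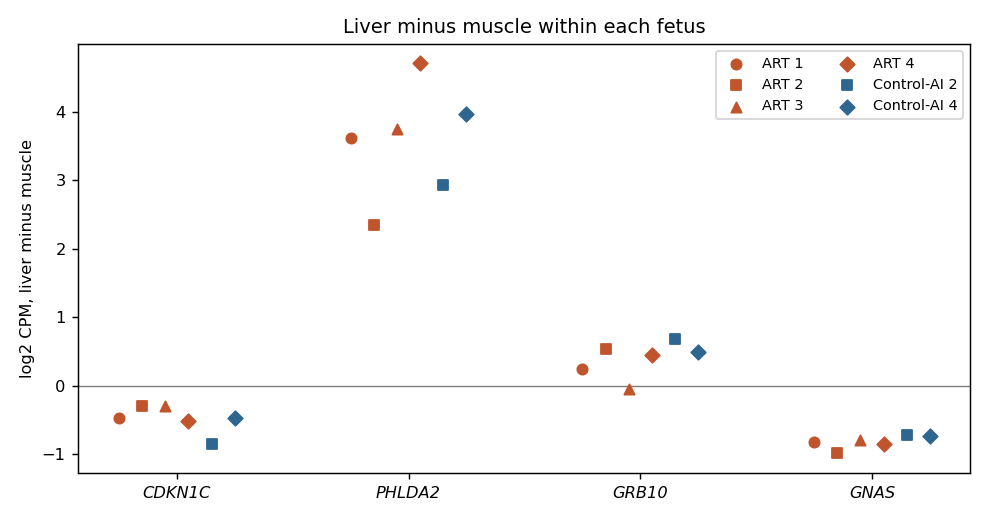
Difference in log2 CPM, liver minus muscle, within each of 6 fetuses (ART orange, Control-AI blue, symbol by fetus number). CDKN1C and GNAS lie below 0 in all 6, PHLDA2 above 2 in all 6, and GRB10 above 0 in all but ART 3.

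The conception difference was not found to depend on the tissue. The interaction, the ART minus Control-AI difference in liver over that in muscle, was 0.22 (95% interval -0.46 to 0.90) for CDKN1C, -0.30 (-0.80 to 0.20) for GRB10 and -0.14 (-0.78 to 0.50) for GNAS on the log2 scale. All 3 had an edgeR adjusted p of at least 0.959, and 0.0% of 12923 genes were called, with 711 at an unadjusted p under 0.05. Without Control-AI 2 the values were 0.11 for CDKN1C, -0.18 for GRB10 and -0.09 for GNAS, with 0 genes called.

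Genes around the 4 differed between tissues in both directions. A list of genes from imprinted regions, those of H19, MEG3 and IGF2R included, had 25 tested genes, of which 10 were higher and 8 lower in liver and 7 did not pass (median log2 fold change -0.01), beside 80.0% of all genes called. The 20 of them on the chromosomes of the 4 genes had 10 higher, 7 lower and 3 not past the test, with a median of 0.29 and a median absolute value of 1.46. Without Control-AI 2, 11 of 21 were higher and 7 lower. Near PHLDA2 and CDKN1C, SLC22A18, a membrane transporter gene, was 46.9 times higher in liver (log2 5.55, SE 0.27), in the same direction as PHLDA2. KCNQ1 was lower in liver at -1.43 (SE 0.53), with Control-AI 2 the extreme of both tissues, and NAP1L4, a histone chaperone gene beyond PHLDA2, had -0.01 (SE 0.07, edgeR adjusted p = 0.948).

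The neighbours of GRB10 and GNAS also split. DDC, the aromatic L-amino acid decarboxylase beside GRB10, was higher in liver at 7.69 (log2, SE 0.39), and COBL on its other side was lower at -2.54 (SE 0.15). Beside GNAS, NELFCD was higher in liver at 0.75 (SE 0.11) and NPEPL1 lower at -0.88 (SE 0.14). TUBB1, a tubulin of platelets and their precursors in the GNAS region, was higher at 7.37 (SE 0.29). At the far end of the chromosome 29 region TNNT3, the fast skeletal troponin T, was lower at -9.00 (SE 0.39), and in the DLK1 cluster RTL1, a paternally expressed gene, was lower at -4.70 (SE 0.34).

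**Figure D4:**
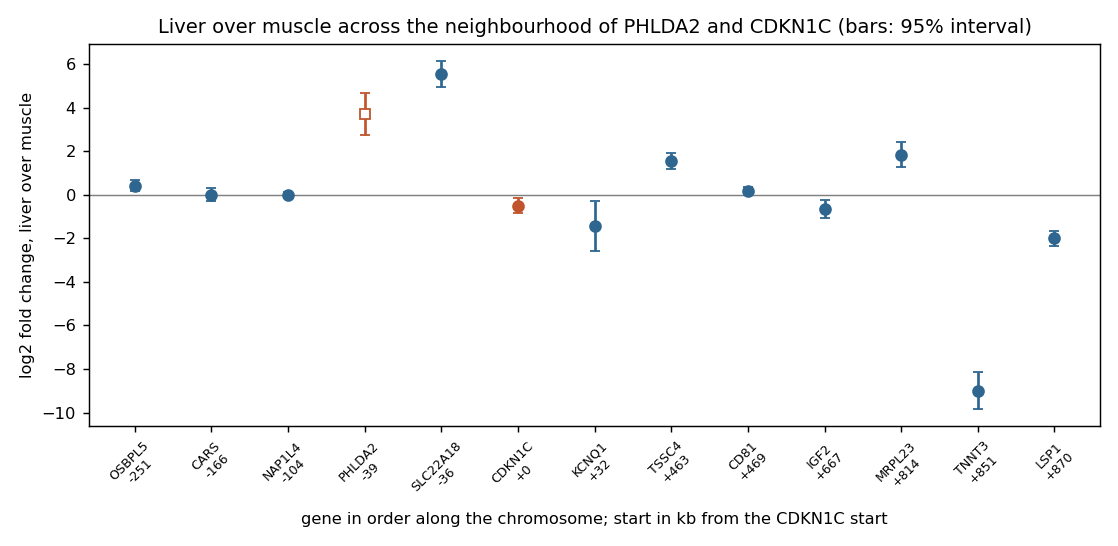
Log2 fold change, liver over muscle, with 95% intervals, of PHLDA2 and CDKN1C (orange) and listed genes around them (blue) in chromosome order, with each start in kb from the CDKN1C start. The open square is PHLDA2 from the fit without the filter. SLC22A18 and PHLDA2 are above 3, CDKN1C, KCNQ1, IGF2, TNNT3 and LSP1 are below 0, and NAP1L4 and CARS are near 0.

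Relatives of the 4 were tested as a list of 8 genes, of which 6 were higher and 2 lower in liver (median log2 0.77), beside 80.0% of all genes called. CDKN1A, the p21 inhibitor related to CDKN1C, was lower in liver at -4.41 (SE 0.23), in the same direction as CDKN1C. CDKN1B, its other listed relative, was higher at 0.93 (SE 0.10). PHLDA1 was lower at -1.41 (SE 0.23), opposite to PHLDA2, whereas PHLDA3 was higher at 0.66 (SE 0.13), as PHLDA2 was. GNAL, the listed relative of GNAS, was higher at 0.37 (SE 0.13), opposite to GNAS. Both other members of the GRB10 family, GRB7 at 4.68 (SE 0.28) and GRB14 at 1.89 (SE 0.39), were higher in liver, as GRB10 was. Without Control-AI 2, 5 of the 8 were higher and 2 lower, with 76.8% of all genes called.

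The cyclins and cyclin-dependent kinases, the proteins that CDKN1C and its relatives bind, were mostly higher in liver, where CDKN1C was lower. Of 12, 8 were higher, 2 lower and 2 did not pass, with a median of 1.26, beside 40.0% of all genes called in each direction. The same counts were found without Control-AI 2. CCNE1 at 3.35 (SE 0.12) and CDK1 at 1.99 (SE 0.09) had the largest rises, and CCND2 at -2.17 (SE 0.10) and CDK6 at -0.44 (SE 0.12) the falls. The 6 markers of cycling cells summed to 1727 to 2246 CPM in liver and 462 to 514 CPM in muscle. CDK1, CCNB1 and CCNA2 are among both these markers and the 12, so the sums are no separate evidence. The part of cycling cells in these differences was not tested.

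The receptors and partners of GRB10 were split, with 3 of 10 higher, 3 lower and 4 not past the test, beside 80.0% of all genes called, 40.0% in each direction. Without Control-AI 2, 3 were higher and 4 lower. IRS2, a docking protein of the insulin receptor, was higher in liver at 2.84 (SE 0.17), and the insulin receptor gene INSR at 0.46 (SE 0.09). The kinase gene AKT1 was lower at -1.99 (SE 0.11) and the IGF1 receptor gene IGF1R at -1.30 (SE 0.14). The median of the list was -0.11.

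Genes listed with GNAS in cAMP signalling were mostly lower in liver, as GNAS was. They include inhibitory G protein alpha subunits, which oppose it, so a shared direction is no shared effect on cAMP. Of 20 tested, 13 were lower, 6 higher and 1 did not pass, with a median of -0.60, beside 40.0% of all genes called in each direction. Without Control-AI 2, 13 were lower and 5 higher. The adenylyl cyclase genes ADCY2 at -6.95 (SE 0.31) and ADCY3 at -4.24 (SE 0.26) fell most. GCGR, the glucagon receptor, was higher at 9.09 (SE 0.37) and PTH1R, the parathyroid hormone receptor, at 1.49 (SE 0.20). Both receptors signal through the protein GNAS encodes. Between the conception groups, 0 genes of these 5 lists passed edgeR's test in either tissue, with both controls or without Control-AI 2.

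The likeness of other genes to CDKN1C and GNAS was lower without Control-AI 2. After subtracting the tissue mean from log2 CPM, the 3 genes most like CDKN1C over 12 libraries were GCSH, CYCS and ZCCHC9, with Pearson r of 0.96, 0.95 and 0.95, and these fell to 0.43, 0.80 and 0.72 over the 10 libraries without Control-AI 2. For GNAS they were METTL5, TMEM216 and FAM149B1 at 0.98, 0.97 and 0.97, which fell to 0.73, 0.75 and 0.82. The 2 tissues of a fetus share its origin, so the 12 points are not independent.

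The genes most like GRB10 depended less on that fetus. WDR20, AAK1 and PSD3 had r of 0.96, 0.96 and 0.95 over 12 libraries and 0.94, 0.91 and 0.91 over 10. Their spans ran from 64824 to 493721 bp. For PHLDA2 they were BHLHA15, GLDC and SLC16A6 at 0.90, 0.87 and 0.87, and 0.89, 0.85 and 0.86 over 10. All these genes were picked for the highest r over the 12 libraries. The 10 are among those 12, so the r over 10 is no separate test. Among the 4 themselves, CDKN1C and GNAS had an r of -0.92, which was -0.36 without Control-AI 2, and GRB10 and GNAS had -0.69, which was -0.43. PHLDA2 had r of -0.14 to 0.22 with the other 3. Its muscle libraries held 2 to 7 reads each, so counting error enters each of its r values.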

How the data were processed

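Per the submitters' processing notes, the authors used FastQC 0.11.7, HISAT2 2.1.0, SAMtools, Cufflinks, featureCounts and edgeR 3.24.3 with ARS-UCD1.2, and deposited raw read counts per gene for liver and muscle, without normalization. All 21048 listed lengths equal the whole gene span. Strand handling is not given in the sources used here. Fetal identifiers in the labels tied 6 of the 13 columns of each tissue to a sample, and the other 14 columns in all were not used. Kidney was not analysed here. The authors' 5 comparison tables hold fold changes and p-values and were not used. Library totals were 12433300 to 43339598 counts. No replicate pair of the 14 compared agreed within sampling noise.

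Genes that reached 5 CPM in every library of any group were tested with edgeR 4.0.16 (TMM, quasi-likelihood F test, two-sided) in R 4.3.3, with Benjamini-Hochberg adjustment over all genes tested and a threshold of 0.05. The 4 ART and 2 Control-AI libraries were compared within each tissue without covariates. A fit over 12 libraries in 4 groups tested liver against muscle and the interaction. With 4 against 2 the smallest exact two-sided permutation p is 0.133, so none is given. Log2 CPM used a prior count of 1, and standard errors were derived from the fold change and its F statistic. Liver and muscle are paired by fetus, from the fetal identifiers in the labels. Across genes, liver and muscle of a fetus departed from their group means with an r of 0.04 to 0.32 in ART and 0.36 in the controls. Procedures were tested on simulated data with 200 changed genes. Python 3.11.15, pandas 2.3.3 and Matplotlib 3.10.9 made tables and plots.

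The genes and lists were chosen with earlier results of these data known. The genes named are the 4, their nearest and overlapping genes, the 2 largest rises and falls of each list between tissues, and the 3 genes of highest r with each. ANKRD1, CDKN1B, PHLDA3, GNAL, CCNB1 and CCNA2 are named after their values were seen. So are, in the plot of the neighbourhood, IGF2, LSP1, CARS and others between them. Alternatives were other scalings (upper quartile, RLE, or the library size alone), DESeq2 1.42.0, edgeR's likelihood ratio test, a filter of 10 counts per library or none, ART 1 to 3 only, a fit over both tissues, ART or Control-AI fetuses only, replicate blocks and leaving out each library or fetus. For PHLDA2 the combinations with no filter, and the list counts without Control-AI 2 or by chromosome, were added after the data were seen.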

Additional observations from a re-analysis of the deposited data

How the results depend on the processing

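Counting over whole spans, unknown strand handling and 2 controls limit the results. Of 203 values of the 4 genes under the alternatives, 191 kept their direction and their side of the threshold. The fits with ART 1 to 3 only and without ART 4 are the same, and both are counted. Between conception groups and in the interaction, none of the 4 passed the threshold at first, so keeping its side there says little. The direction turned in 6: without Control-AI 2, CDKN1C and GNAS in muscle and CDKN1C in liver, without the filter and Control-AI 2, PHLDA2 in muscle (0.30) and in the interaction (-0.45), and the interaction of GNAS was 0.11 with library size alone, a scale that moved the median of all genes by 0.20. Between conception groups, with 1 gene called in muscle, the likelihood ratio test called 120, DESeq2 106, ART 1 to 3 only 0, and leaving out 1 library 0 to 1327. With 0 called in liver, library size alone gave 6, the likelihood ratio test 89, DESeq2 56, ART 1 to 3 only 2, a fit over both tissues 4, and leaving out 1 library 0 to 830. Both highest counts came without Control-AI 4. Leaving out 1 library gave log2 fold changes, ART over Control-AI, of -0.14 to 0.43 for CDKN1C and -0.46 to 0.025 for GNAS in muscle, and of -0.052 to 0.85 for CDKN1C in liver. The number called among CDKN1C, GRB10 and GNAS was 0 to 1 in each tissue on leaving out 1 library, and 1, again, only without Control-AI 4. For liver against muscle it was 1 of 3 with the Control-AI fetuses only, where CDKN1C was -0.62 (adjusted p = 0.230) and GNAS -0.73 (adjusted p = 0.190), and GRB10 was 0.29 (adjusted p = 0.0567) with the ART fetuses only. In the interaction, with 0 genes called, the likelihood ratio test gave 98, DESeq2 37 and leaving out 1 fetus 0 to 232. With the replicate number as a block, 90 genes passed in muscle and 6 in liver, none of them among the 4. Deviations of same-numbered libraries correlated at -0.13 to 0.01, so the numbers mark no pairing there. With the fetus as a replicate block, the tissue values were -0.53 for CDKN1C, 0.44 for GRB10, -0.80 for GNAS and 3.72 for PHLDA2, and no call of the 4 genes changed, with 10888 genes called in place of 10337. The causes were not tested.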
